A study of Mus musculus with 6 samples.

Results

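Granulocyte-macrophage colony-stimulating factor (GM-CSF) and the chains of its receptor are encoded in the mouse by 4 genes, Csf2, Csf2ra, Csf2rb and Csf2rb2. They were taken by symbol from the 18122 genes of a count table, and all 4 were among the 13691 genes with enough reads to be tested. The set was chosen with the comparison of genotypes already known, so the differences of these 4 genes are given as descriptions without a test. RNA was sequenced from group 2 innate lymphoid cells (ILC2s), tissue lymphocytes that make interleukin-5 and interleukin-13, sorted from lung and kept in culture before lysis. The ICOS KO group held 3 libraries from mice of the genotype C.129S4-Icostm1Shr/J, whose Icos, which encodes the inducible costimulator receptor, was altered by gene targeting. The WT group held 3 libraries from mice of the genotype BALB/C BYJ. Both the strain name and the Icos allele thus separate the groups, and their shares in a difference cannot be told apart. The cDNA came from a SMARTer low-input kit, the treatment in culture is not given in the sources used here, and the design text speaks of duplicates although 3 libraries of each genotype were present.

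GM-CSF is a secreted cytokine that drives the growth and activation of myeloid cells. It binds the alpha chain of its receptor, encoded by Csf2ra, and this complex recruits the beta common chain, encoded by Csf2rb, which also serves the receptors of interleukin-3 and interleukin-5 and signals through the kinase JAK2 and the transcription factor STAT5. Mice have another beta chain gene, Csf2rb2, whose product pairs with the alpha chain of the interleukin-3 receptor. Lung ILC2s are a known source of GM-CSF.

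Total estimated counts were 13738062 to 15543034 in the ICOS KO libraries and 14976130 to 18736474 in the WT libraries. Levels below are CPM, the usual unit of counts relative to library size, with TMM factors that adjust library totals for composition. A count of 3 corresponded to 0.160 to 0.218 CPM, and such floors cover counting error only, since no molecular identifiers are described. Whether the 3 libraries of a group are separate mice or cultures is not stated, so p-values reflect library-to-library spread, which may be technical. The first principal component held 40.4% of the variance and separated the genotypes, with ICOS KO replicate 2 farthest from the WT libraries. Between the genotypes 451 genes passed an adjusted p of 0.05 in edgeR's quasi-likelihood test, 176 higher and 275 lower in ICOS KO cells. That count was 1090 without ICOS KO replicate 1, 216 without ICOS KO replicate 3, 193 without WT replicate 1 and 194 without WT replicate 2.

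Icos, the targeted gene, stood at 139.9, 170.2 and 161.4 CPM in the ICOS KO libraries, against 434.3, 462.2 and 501.7 CPM in the WT libraries. Every ICOS KO library lay below every WT library, and Icos fell by 1.57 ± 0.10 on the log2 scale (SE, n = 3 each, edgeR adjusted p = 1.27e-05). The table gives 1 value for the whole gene (chromosome 1, 60977927 to 61000320 in GRCm38), and the targeted stretch of it is not given in the sources used here. All 12 ILC2 markers examined were detected, and their summed level was 11480 to 12200 CPM in ICOS KO libraries and 11120 to 12280 CPM in WT libraries. Il5 made up a large part of that sum, with 6049 ± 309 CPM in ICOS KO cells and 6460 ± 533 CPM in WT cells (SD, n = 3 each). The sum therefore says little about the other markers. Gata3, the transcription factor that defines ILC2s, averaged 753 ± 53.1 CPM in ICOS KO cells and 868 ± 51.0 CPM in WT cells (SD, n = 3 each, edgeR adjusted p = 0.227). Of the 12 ILC2 markers, 3 were called higher (Klrg1, Areg and Il1rl1) and 1 lower (Rora), beside 3.29% of all tested genes called. Of the T cell markers, Cd3g averaged 63.3 ± 11.2 CPM in ICOS KO cells and 48.2 ± 8.30 CPM in WT cells, Cd3e 2.30 ± 1.34 CPM in ICOS KO cells and 8.87 ± 1.41 CPM in WT cells, and the T cell receptor gene Trac 0.579 ± 0.239 CPM in ICOS KO cells and 0.988 ± 0.520 CPM in WT cells (SD, n = 3 each).

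Csf2, the gene of the ligand (ENSMUSG00000018916.5), lies on the minus strand of chromosome 11 from 54247271 to 54249667 in GRCm38. Its 3′ untranslated region of 317 bases holds 9 copies of ATTTA, the pentamer of AU-rich elements by which short-lived cytokine mRNAs are marked for decay. The stretch with the densest copies (chr11:54247320-54247349, minus strand, from GENCODE M21) is shown because Zfp36, a protein known to bind such elements, is among the genes described further on. Capitals mark the 5 copies of ATTTA, neighbouring copies sharing a letter.
Csf2 AU-rich stretch: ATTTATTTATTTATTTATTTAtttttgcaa
As many copies within 30 bases were found in 53 of 20834 coding genes (0.254%), and 65.3% of genes held at least 1 copy. The 3′ untranslated regions of Csf2ra, Csf2rb and Csf2rb2 held none, and that of Il5, the main type 2 cytokine gene of these cells, held 7 in 1092 bases with at most 2 in such a window. At most 2 in such a window were also found for Il13, Il4 and the lymphotoxin alpha gene Lta, and at most 1 for Icos. Lta and Icos were lower in ICOS KO cells too. A match of letters is a description of the sequence and not a measurement of mRNA decay.

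Csf2 mRNA stood at 145.7, 166.1 and 147.4 CPM in the ICOS KO libraries, against 499.7, 522.6 and 512.6 CPM in the WT libraries. The libraries of each genotype lay close together, and the highest ICOS KO library was far below the lowest WT library. The means were 153 ± 11.3 CPM in ICOS KO cells and 512 ± 11.5 CPM in WT cells (SD, n = 3 each). Csf2 was thus 3.34-fold lower in ICOS KO cells, at −1.74 ± 0.093 on the log2 scale (SE). These levels rest on 1986 to 2256 estimated counts in ICOS KO libraries and 7819 to 9939 in WT libraries. In RNA from bulk cells, fewer cells that make a transcript and less of it in each cell cannot be told apart. An annotated antisense gene, Gm12223, overlaps Csf2, and since the strand setting of the counting is not given, reads of the 2 genes cannot be told apart. After removal of each library's dependence on transcript length and GC content, the log2 fold change of Csf2 was −2.04.

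Csf2ra, the gene of the alpha chain that binds GM-CSF (ENSMUSG00000059326.7, chromosome 19, 61223957 to 61228429, minus strand), was expressed at a low level. It stood at 6.782, 7.441 and 7.497 CPM in the ICOS KO libraries, against 9.333, 8.729 and 9.441 CPM in the WT libraries. The groups did not overlap, but the gap between the nearest libraries was narrow. The means were 7.24 ± 0.398 CPM in ICOS KO cells and 9.17 ± 0.384 CPM in WT cells (SD, n = 3 each), with a log2 fold change of −0.34 ± 0.21 (SE). Counts were 99 to 105 in ICOS KO libraries and 144 to 178 in WT libraries. The SE of the fit was wider than the spread of these libraries alone, whose pooled SD was 0.070 on the log2 CPM scale.

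Csf2rb, the gene of the signalling beta common chain (ENSMUSG00000071713.6), lies on the plus strand of chromosome 15 from 78325752 to 78353847, and Csf2rb2 (ENSMUSG00000071714.7) lies beside it on the minus strand from 78282507 to 78305721. Their coding sequences are 2688 and 2634 bases long and are identical at 2503 of 2628 aligned positions (95.2%). The longest run that both share is 242 bases, at chr15:78348577-78348818 on the plus strand in Csf2rb and chr15:78284630-78284871 on the minus strand in Csf2rb2. It is shown because a read that falls inside it cannot be assigned to either gene.
Run shared by Csf2rb and Csf2rb2: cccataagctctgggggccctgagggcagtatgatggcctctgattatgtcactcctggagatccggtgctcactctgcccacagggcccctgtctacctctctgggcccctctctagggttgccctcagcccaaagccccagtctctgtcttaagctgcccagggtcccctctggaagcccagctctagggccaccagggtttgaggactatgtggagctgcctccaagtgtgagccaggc
By contrast, the following aligned stretches of 100 bases (chr15:78338887-78338986, plus strand, in Csf2rb and chr15:78294345-78294444, minus strand, in Csf2rb2) differ at 16 positions, marked in capitals, and reads there can tell the genes apart.
Csf2rb stretch: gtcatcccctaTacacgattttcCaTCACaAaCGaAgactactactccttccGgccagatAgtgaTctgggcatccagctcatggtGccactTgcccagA
Csf2rb2 stretch: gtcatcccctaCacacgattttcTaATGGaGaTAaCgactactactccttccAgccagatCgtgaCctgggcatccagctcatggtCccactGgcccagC
Windows of 75 bases were taken over the longest coding transcript of each gene, untranslated regions included. Of those of Csf2rb, 10.7% were also present in transcripts of Csf2rb2, and 11.1% of those of Csf2rb2 were present in transcripts of Csf2rb. The division of reads between the 2 genes is therefore uncertain, and their sum is given beside the single values.

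Csf2rb stood at 45.21, 39.46 and 46.91 CPM in the ICOS KO libraries, against 93.59, 76.61 and 91.72 CPM in the WT libraries. All 3 ICOS KO libraries lay below all 3 WT libraries, and ICOS KO replicate 2 and WT replicate 2 were the lowest of their groups. The means were 43.9 ± 3.90 CPM in ICOS KO cells and 87.3 ± 9.31 CPM in WT cells (SD, n = 3 each), with a log2 fold change of −0.99 ± 0.12 (SE) or 1.99-fold lower in ICOS KO cells. With the trend of length and GC content removed it was −0.79. The counts behind the levels were 525 to 700 in ICOS KO libraries and 1399 to 1785 in WT libraries.

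Csf2rb2, the gene of the interleukin-3 receptor beta chain, stood at 10.85, 15.11 and 11.36 CPM in the ICOS KO libraries, against 16.20, 12.51 and 12.98 CPM in the WT libraries. The groups overlapped, ICOS KO replicate 2 exceeding 2 of the WT libraries. The means were 12.4 ± 2.33 CPM in ICOS KO cells and 13.9 ± 2.01 CPM in WT cells (SD, n = 3 each), and the log2 fold change was −0.16 ± 0.20 (SE). It turned to 0.051 with the trend of length and GC content removed, and was −0.32 without ICOS KO replicate 2 and −0.036 without WT replicate 1.

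Added together, Csf2rb and Csf2rb2 gave 56.06, 54.57 and 58.27 CPM in the ICOS KO libraries, against 109.8, 89.13 and 104.7 CPM in the WT libraries. The sum, which does not depend on how reads were divided between the copies, again left the groups apart, at 56.3 ± 1.86 CPM in ICOS KO cells and 101 ± 10.8 CPM in WT cells (SD, n = 3 each). Its log2 fold change was −0.85 ± 0.11 (SE) when the counts were summed before the fit. Csf2rb made up 80.7%, 72.3% and 80.5% of the sum in the ICOS KO libraries, with exact Clopper-Pearson 95% confidence intervals of 77.9% to 83.2%, 68.9% to 75.5% and 77.6% to 83.2%. In the WT libraries it made up 85.2%, 86.0% and 87.6%, with intervals of 83.7% to 86.7%, 84.2% to 87.6% and 85.9% to 89.2%. ICOS KO replicate 2, which stood farthest out on the first principal component, had the lowest share. These intervals cover counting error within a library and not the spread between libraries, and the shares restate the separate levels of the 2 genes.

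**Figure D1:**
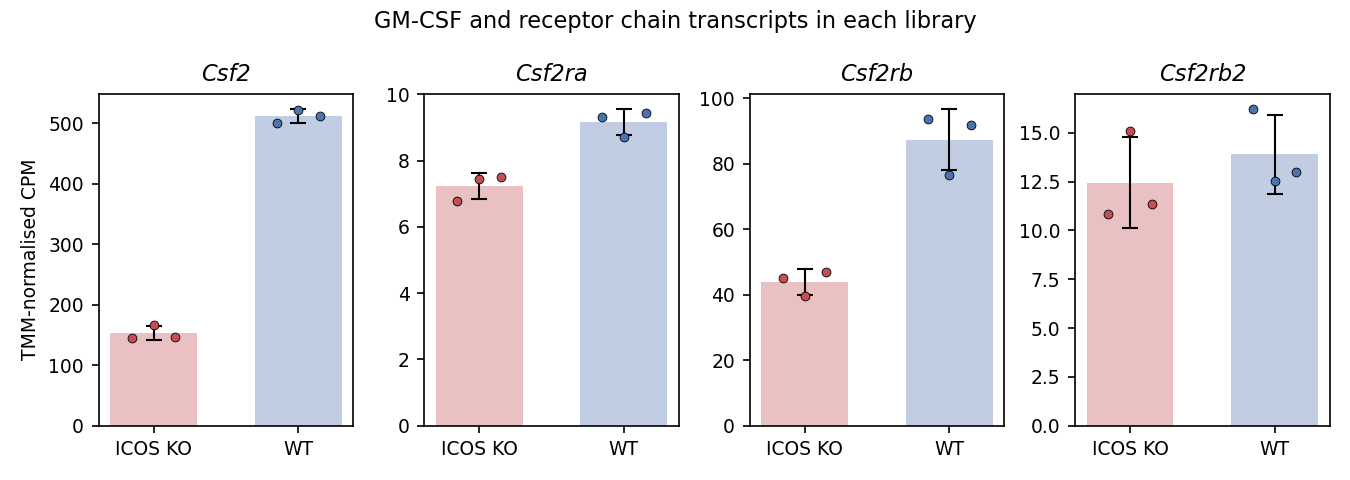
Level of Csf2, Csf2ra, Csf2rb and Csf2rb2 in TMM-scaled CPM (linear axes starting at 0, one panel a gene) in the ICOS KO libraries (left in each panel) and the WT libraries (right); points are single libraries and bars are means with SD (n = 3 each). Csf2 averaged 153 CPM in ICOS KO cells and 512 CPM in WT cells, Csf2rb 43.9 and 87.3 CPM, and the Csf2rb2 groups overlapped.

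Of the 4 genes, 2 (Csf2 and Csf2rb) were among the called genes, beside 3.29% of all tested genes called in either direction, 2.01% called lower and 1.29% called higher. Since the genes were chosen from this comparison, nothing is read from that count. All ICOS KO libraries lay below all WT libraries for 3 of the 4 genes, beside 12.5% of tested genes. The reverse, all ICOS KO libraries above all WT libraries, held for 11.9% of tested genes.

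Per kilobase of transcript, Csf2 was the most abundant of the 4 genes in both genotypes, at 191 ± 14.2 CPM per kb in ICOS KO cells and 640 ± 14.4 CPM per kb in WT cells (SD, n = 3 each). Csf2rb followed at 8.95 ± 0.797 CPM per kb in ICOS KO cells and 17.8 ± 1.90 CPM per kb in WT cells. Csf2ra came next, with 3.92 ± 0.215 CPM per kb in ICOS KO cells and 4.96 ± 0.207 CPM per kb in WT cells. Csf2rb2 was lowest at 2.62 ± 0.491 CPM per kb in ICOS KO cells and 2.93 ± 0.424 CPM per kb in WT cells. Within each genotype no library of one gene overlapped a library of the next in this order. The gap was smallest between Csf2ra and Csf2rb2 in ICOS KO cells, where the lowest Csf2ra library was at 3.67 CPM per kb and the highest Csf2rb2 library at 3.19.

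The other cytokine genes of ILC2s give the scale of these levels. Il5, whose product drives eosinophils, was at 3935 ± 201 CPM per kb in ICOS KO cells and 4203 ± 347 CPM per kb in WT cells, and did not pass the test (SD, n = 3 each, edgeR adjusted p = 0.504). Il13 was at 108 ± 20.4 CPM per kb in ICOS KO cells and 91.3 ± 1.999 CPM per kb in WT cells (edgeR adjusted p = 0.313). Csf2 thus stood above Il13 per kilobase in both genotypes. Il4 rose, to 48.9 ± 6.76 CPM per kb in ICOS KO cells against 28.8 ± 3.19 CPM per kb in WT cells, by 0.77 ± 0.16 on the log2 scale (SE, edgeR adjusted p = 0.0217). That call was lost without ICOS KO replicate 2 (adjusted p = 0.0677), ICOS KO replicate 3 (0.0673), WT replicate 1 (0.108) or WT replicate 2 (0.131), and with the trend of length and GC content removed (0.175), where the log2 fold change was 0.36.

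**Figure D2:**
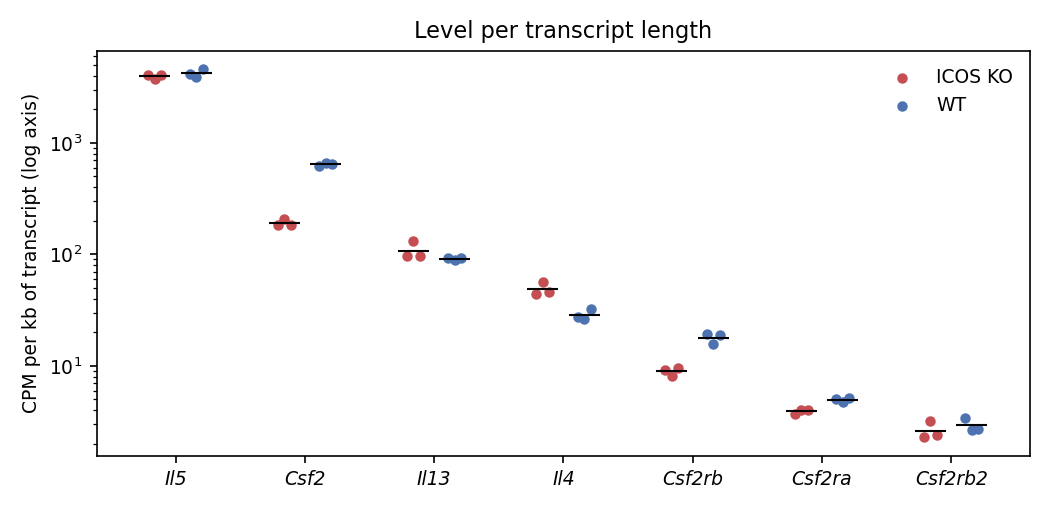
Level per kilobase of transcript (CPM per kb, log axis) of the 4 genes and of Il5, Il13 and Il4 in single libraries, ICOS KO left of WT for each gene, with lines at the means (n = 3 each). Csf2 stands between Il5 and Il13 in WT cells, at 640 CPM per kb, and the receptor chain genes lie below all 3 interleukin genes.

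Of the family that shares the beta common chain, Il3ra, the alpha chain of the interleukin-3 receptor, averaged 9.46 ± 3.15 CPM in ICOS KO cells and 8.07 ± 2.04 CPM in WT cells (SD, n = 3 each, edgeR adjusted p = 0.684). Il5ra, the alpha chain that binds interleukin-5, was too low to be tested, with 0.581, 0.902 and 1.71 CPM in the ICOS KO libraries, against 0, 0.158 and 0 CPM in the WT libraries. All WT values of Il5ra lay at or under the floor of 3 counts, so no fold is given. Il3 was not analysed here.

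A list of 77 further genes of the pathway was examined in 6 groups by role, of which 71 were tested. Of these, 4 were called higher and 7 lower in ICOS KO cells, 11 in all (15.5%, beside 3.29% of all tested genes). An unadjusted edgeR p under 0.05 was found for 23 of the 71, beside 2718 of all 13691 tested genes. That background also applies to the counts of unadjusted p given for each list below. The median log2 fold change of the 71 genes was −0.095, beside −0.0035 over all tested genes. The lists were written with earlier results of these data known. The 11 calls became 7 without ICOS KO replicate 2, 2 without ICOS KO replicate 3, 1 without WT replicate 1, 4 without WT replicate 2 and 7 without WT replicate 3.

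Among 15 genes of signalling below the receptor, 0 were called higher and 1 lower by edgeR, 4 had an unadjusted p under 0.05 and the median log2 fold change was −0.11. The called gene was Lyn, a Src-family kinase that associates with the beta common chain. It stood at 38.95, 32.77 and 33.63 CPM in the ICOS KO libraries, against 55.21, 46.22 and 51.66 CPM in the WT libraries, with no overlap. Lyn fell by 0.54 ± 0.13 on the log2 scale (SE, n = 3 each, edgeR adjusted p = 0.0467). The call was lost when any 1 library other than ICOS KO replicate 1 was left out (ICOS KO replicate 2 or 3, or WT replicate 1, 2 or 3, adjusted p 0.0896 to 0.225), with limma voom (0.0514), upper-quartile scaling (0.0531), no filter (0.0565) and the trend of length and GC content removed (0.0765). On the other strand 4 annotated genes, the long non-coding RNA gene Gm26857 among them, overlap Lyn. The kinase gene Jak1 averaged 326 ± 39.7 CPM in ICOS KO cells and 392 ± 23.8 CPM in WT cells and was not called (adjusted p = 0.19). Grb2, an adaptor, averaged 332 ± 12.9 CPM in ICOS KO cells and 305 ± 4.83 CPM in WT cells (0.424), and Pik3cd, a lipid kinase subunit, 333 ± 73.5 CPM in ICOS KO cells and 297 ± 32.9 CPM in WT cells (0.549). Jak2, which is bound to the beta chain, was at 48.8 ± 3.08 CPM in ICOS KO cells and 63.7 ± 13.9 CPM in WT cells (0.202). Stat5a averaged 30.6 ± 3.13 CPM in ICOS KO cells and 33.2 ± 3.87 CPM in WT cells (0.675), and Stat5b 62.8 ± 9.77 CPM in ICOS KO cells and 85.5 ± 11.8 CPM in WT cells (0.12).

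Among 15 genes known as STAT5 targets or as feedback regulators of cytokine receptors, 14 were tested. Of these, 3 were called higher and 0 lower by edgeR, 5 had an unadjusted p under 0.05 and the median log2 fold change was 0.12. Socs3, a feedback inhibitor of cytokine receptors that acts mainly downstream of STAT3, stood at 429.9, 344 and 387.7 CPM in the ICOS KO libraries, against 247, 274.3 and 230.4 CPM in the WT libraries. The groups did not overlap, and Socs3 rose by 0.63 ± 0.11 on the log2 scale (SE, n = 3 each, edgeR adjusted p = 0.0084). Its adjusted p was 0.0527 without ICOS KO replicate 3 and 0.0543 without WT replicate 1. Pim2, a survival kinase, rose to 246 ± 10.9 CPM in ICOS KO cells against 179 ± 12.2 CPM in WT cells (edgeR adjusted p = 0.0208). Osm, the cytokine oncostatin M, rose to 179 ± 23.1 CPM in ICOS KO cells against 128 ± 3.56 CPM in WT cells (edgeR adjusted p = 0.0367). With library totals as the only scaling the adjusted p was 0.0518 for Pim2 and 0.0662 for Osm. Without ICOS KO replicate 3 or any 1 of WT replicates 1, 2 and 3 it was 0.0663 to 0.12 for Pim2, and without these or ICOS KO replicate 2 it was 0.0508 to 0.189 for Osm.

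Other STAT5-responsive genes did not pass the test. Cish, a feedback inhibitor induced by STAT5, averaged 440 ± 12.1 CPM in ICOS KO cells and 485 ± 13.9 CPM in WT cells (SD, n = 3 each, edgeR adjusted p = 0.35). Socs1 averaged 812 ± 68.4 CPM in ICOS KO cells and 732 ± 66.02 CPM in WT cells (0.407). The most abundant gene of the list, Il2ra, the alpha chain of the interleukin-2 receptor, averaged 1687 ± 57.9 CPM in ICOS KO cells and 1419 ± 45.9 CPM in WT cells (0.0977). It passed with the replicate block (0.0485) and with the trend of length and GC content removed (0.00241). Ccnd3, a cyclin, averaged 529 ± 4.63 CPM in ICOS KO cells and 581 ± 33.0 CPM in WT cells (0.382).

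Among transcription factors linked to Csf2, 23 of 24 were tested, 0 were called higher and 5 lower by edgeR, 9 had an unadjusted p under 0.05 and the median log2 fold change was −0.20. Bhlhe40, a factor needed for GM-CSF production by T cells in mice, stood at 61.36, 54.95 and 58.94 CPM in the ICOS KO libraries, against 130.4, 125.7 and 93.75 CPM in the WT libraries. No ICOS KO library reached the lowest WT library, and Bhlhe40 fell by 0.998 ± 0.13 on the log2 scale (SE, n = 3 each, edgeR adjusted p = 0.00162). Its call was kept in each of the 15 alternative settings, the 6 fits without 1 library included, where the adjusted p was at most 0.0184. An antisense gene, 0610040F04Rik, overlaps Bhlhe40, and reads of the pair cannot be told apart without strand.

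The other called regulators moved less or were scarcely expressed. Nfkb2, an NF-κB subunit of the non-canonical arm, fell to 54.0 ± 7.83 CPM in ICOS KO cells against 89.2 ± 13.2 CPM in WT cells (SD, n = 3 each, edgeR adjusted p = 0.0169). Irf4, an interferon regulatory factor of activated lymphocytes, fell to 49.3 ± 6.50 CPM in ICOS KO cells against 80.4 ± 6.69 CPM in WT cells (edgeR adjusted p = 0.0104). Rora, the nuclear receptor needed for ILC2 development, fell to 152 ± 5.997 CPM in ICOS KO cells against 211 ± 7.75 CPM in WT cells (edgeR adjusted p = 0.0155). Tbx21, which encodes the type 1 factor T-bet, was at 0.388, 0 and 0.149 CPM in the ICOS KO libraries, against 2.83, 2.26 and 1.11 CPM in the WT libraries (edgeR adjusted p = 0.0375), a level too low for a stable fold. Of these 4 genes, Irf4 and Rora lost their call without ICOS KO replicate 3, WT replicate 1 or WT replicate 2, where the adjusted p was 0.0544 to 0.0799 for Irf4 and 0.0799 to 0.104 for Rora. Nfkb2 lost its call without these or ICOS KO replicate 2 (0.0579 to 0.102), and Tbx21 without any 1 library other than ICOS KO replicate 1 (0.0527 to 0.201) or with no filter (0.0505). The coding gene Psd overlaps Nfkb2, and an antisense gene overlaps Rora. The 3 most abundant genes of the list were not called: Gata3, given above, Junb, an AP-1 subunit, with 514 ± 12.4 CPM in ICOS KO cells and 528 ± 66.5 CPM in WT cells (edgeR adjusted p = 0.864), and Nfkb1, with 396 ± 26.8 CPM in ICOS KO cells and 374 ± 9.14 CPM in WT cells (0.627).

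Among 12 genes that act on AU-rich or other cytokine mRNAs, 1 was called higher and 0 lower by edgeR, 3 had an unadjusted p under 0.05 and the median log2 fold change was −0.051. The called gene was Zfp36, which encodes tristetraprolin, a protein that binds AU-rich elements such as the one printed for Csf2 and promotes decay of the mRNA. Zfp36 stood at 76.6, 77.5 and 71.33 CPM in the ICOS KO libraries, against 47.4, 52.58 and 47.99 CPM in the WT libraries. The groups did not overlap, and Zfp36 rose by 0.61 ± 0.11 on the log2 scale (SE, n = 3 each, edgeR adjusted p = 0.0102). Only leaving out WT replicate 1 ended the call among the settings tried (adjusted p = 0.0721), and an antisense gene, Gm44710, overlaps Zfp36. The most abundant genes of this list were not called. Elavl1, a protein that stabilises AU-rich mRNAs, averaged 191 ± 13.4 CPM in ICOS KO cells and 209 ± 17.8 CPM in WT cells (SD, n = 3 each, edgeR adjusted p = 0.489), Hnrnpd 157 ± 33.3 CPM in ICOS KO cells and 142 ± 27.6 CPM in WT cells (0.675), and Cnot1, the scaffold of the deadenylase complex, 77.2 ± 11.2 CPM in ICOS KO cells and 98.9 ± 9.78 CPM in WT cells (0.16; 0.0478 without ICOS KO replicate 1). Decay itself was not measured.

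Among the other colony-stimulating factors and their receptors, 5 of 7 genes were tested, 0 were called higher and 1 lower by edgeR, 2 had an unadjusted p under 0.05 and the median log2 fold change was 0.076. Csf1r, the receptor of macrophage colony-stimulating factor and a marker of macrophages, stood at 5.23, 3.61 and 2.75 CPM in the ICOS KO libraries, against 13.37, 8.99 and 11.41 CPM in the WT libraries. It fell by 1.54 ± 0.29 on the log2 scale (SE, n = 3 each, edgeR adjusted p = 0.013), and its adjusted p was 0.0617 without ICOS KO replicate 3 and 0.0824 without WT replicate 1. Hmgxb3, a coding gene on the other strand, overlaps Csf1r. Kitl, the ligand of the receptor KIT, averaged 11.3 ± 1.43 CPM in ICOS KO cells and 10.7 ± 0.789 CPM in WT cells (SD, n = 3 each, edgeR adjusted p = 0.858), and Flt3l, the ligand of FLT3, averaged 52.1 ± 7.53 CPM in ICOS KO cells and 45.4 ± 2.30 CPM in WT cells (0.419).

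**Figure D3:**
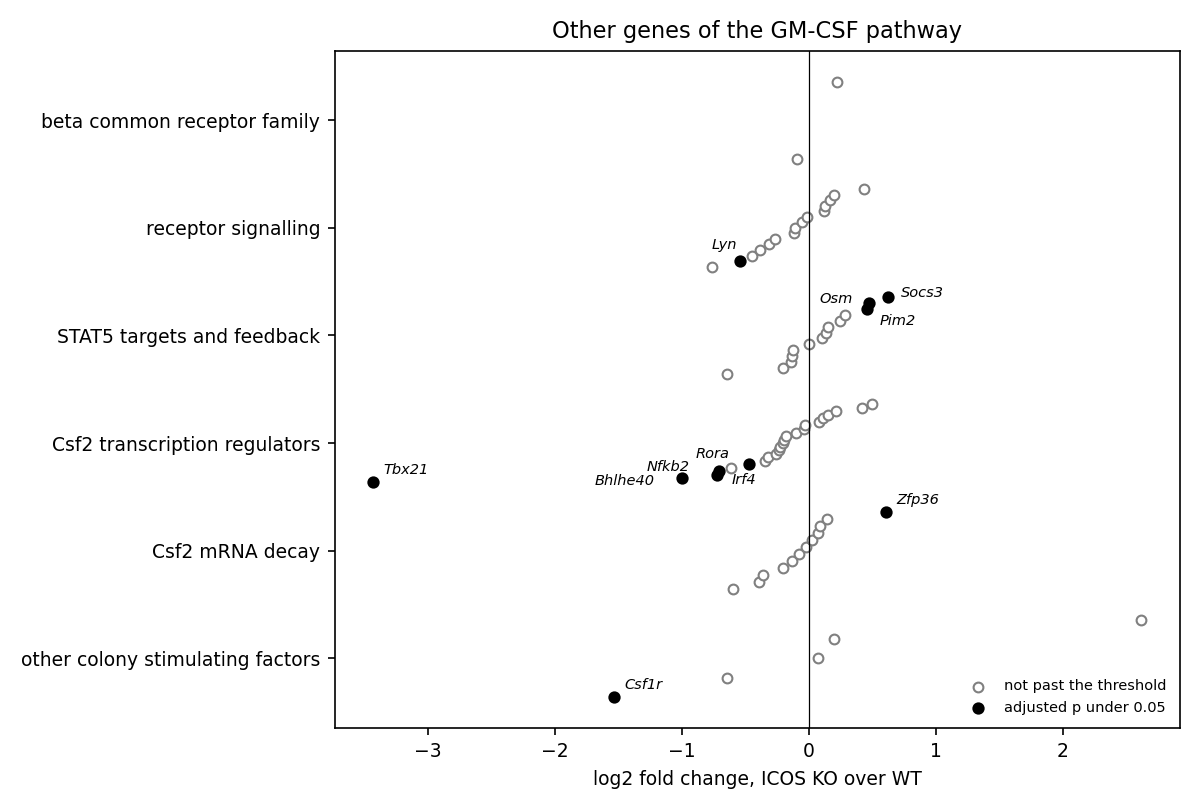
Log2 fold change (ICOS KO over WT) of each tested gene of the 6 pathway lists; filled circles are genes past an edgeR adjusted p of 0.05 and open circles the others, spread vertically within a list for legibility. Of 71 tested genes 4 were called higher and 7 lower, Bhlhe40 at −0.998 and Zfp36 at 0.61 among them.

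Markers of some other cell types differed between the genotypes too. For mast cells and basophils, which express Csf2rb, 11 of 12 listed markers were in the data, 9 were tested, and 6 fell and 0 rose. Their summed level was 36.5 to 41.3 CPM in ICOS KO libraries and 122.5 to 133.8 CPM in WT libraries. The mast cell protease gene Cpa3 was at 1.47 ± 1.04 CPM in ICOS KO cells and 27.6 ± 3.48 CPM in WT cells, and Fcer1a, of the high-affinity IgE receptor, was at 0, 0.226 and 0 CPM in the ICOS KO libraries, against 1.78, 1.63 and 1.77 CPM in the WT libraries. Kit was at 20.2 ± 2.86 CPM in ICOS KO cells and 20.3 ± 1.40 CPM in WT cells. The part of these cells in the lower Csf2, Csf2rb and Csf2ra levels was not tested.

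For macrophages and dendritic cells, 11 of 12 markers were in the data, 8 were tested, and 1 (Csf1r) fell and 0 rose, with summed levels of 337.6 to 474.7 CPM in ICOS KO libraries and 384.9 to 759.2 CPM in WT libraries. For eosinophils 3 of 7 markers were tested and 0 were called by edgeR. Of them 1 had an unadjusted p under 0.05, Ccr3, which was higher in ICOS KO cells (log2 fold change 0.62). The eosinophil sums were 19.5 to 21.7 CPM in ICOS KO libraries and 16.2 to 55.6 CPM in WT libraries. Epx and Ear6 were at 0 in every ICOS KO library. In the WT libraries Epx was at 7.24, 17.35 and 0 CPM, and Ear6 at 0.787, 0.736 and 0.393 CPM. For neutrophils 5 of 7 were tested and 0 were called by edgeR. Of them 2 had an unadjusted p under 0.05, in opposite directions. Mpo was lower in ICOS KO cells (log2 fold change −4.13) and Csf3r higher (2.62). The neutrophil sums were 4.45 to 9.24 CPM in ICOS KO libraries and 6.10 to 42.3 CPM in WT libraries. Elane was at 0 in every ICOS KO library, against 0.0524, 3.42 and 0.0656 CPM in the WT libraries. Of 4 tested T cell markers 1 fell (Cd3e), with sums of 55.4 to 76.1 CPM in ICOS KO libraries and 49.7 to 69.4 CPM in WT libraries. Of 4 tested B cell markers 1 rose (Cd79b), with sums of 29.7 to 45.8 CPM in ICOS KO libraries and 25.2 to 26.3 CPM in WT libraries. Their part in the results was not tested.

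The profile of Csf2 over the 6 libraries was compared with those of 9816 genes with a mean of at least 5 CPM, by the Euclidean distance between log2 CPM centred on each gene's mean. The nearest gene was Icos itself (distance 0.282), followed by Lta (0.286), Btbd9 (0.294), Rfwd3 (0.304) and Bmpr2 (0.374), while the median gene lay at 2.15. All 5 lie on other chromosomes than Csf2. Lta, the gene of the cytokine lymphotoxin alpha, was at 54.4 ± 5.01 CPM in ICOS KO cells and 194 ± 7.14 CPM in WT cells (SD, n = 3 each). Btbd9 was at 27.6 ± 2.93 CPM in ICOS KO cells and 102 ± 10.3 CPM in WT cells, and Rfwd3, a ubiquitin ligase gene, at 22.5 ± 0.926 CPM in ICOS KO cells and 83.5 ± 10.2 CPM in WT cells. Bmpr2, a receptor gene, was at 3.21 ± 0.412 CPM in ICOS KO cells and 10.5 ± 1.95 CPM in WT cells. It lies on chromosome 1 from 59763400 to 59879014, near Icos, which starts at 60977927, and the part of that position in its level was not tested. Csf2rb lay at a distance of 1.02 from Csf2, Csf2ra at 1.73 and Csf2rb2 at 1.97, and as Csf2 separates the genotypes, a small distance is a description of the same separation.

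Csf2 lies in the type 2 cytokine region of chromosome 11, and the coding genes next to each member were examined by position. On the low-coordinate side of Csf2, P4ha2, a collagen prolyl hydroxylase subunit gene (54100095 to 54131665, plus strand), stood at 22.02, 11.5 and 19.97 CPM in the ICOS KO libraries, against 62.6, 59.74 and 53.5 CPM in the WT libraries. Every ICOS KO library lay below every WT library, and P4ha2 fell by 1.71 ± 0.20 on the log2 scale (SE, n = 3 each, edgeR adjusted p = 0.000863), a call kept in each of the 15 alternative settings (at most 0.00858). Pdlim4, the next gene on that side, was too low to be tested, and Il3 and Acsl6 on the other side were not analysed here. Beside the beta chain genes, Ncf4, an NADPH oxidase subunit gene, averaged 436 ± 18.2 CPM in ICOS KO cells and 499 ± 9.49 CPM in WT cells and was not called (edgeR adjusted p = 0.225). Tst averaged 2.50 ± 0.814 CPM in ICOS KO cells and 2.14 ± 0.736 CPM in WT cells (0.812), and Tex33 was too low to be tested. Beside Csf2ra, Gm7102 was too low to be tested, and its other neighbours, like Pvalb beside Csf2rb2, were not analysed here.

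After the value of P4ha2 was seen, all genes within 1000 kb of the start of Csf2 were examined. Of 35 tested genes besides Csf2, 1 (Il4) was called higher and 2 lower, beside 3.29% of all tested genes called. The median log2 fold change of the 35 genes was 0.13. The 2 lower genes were P4ha2 and 4933405E24Rik, a long non-coding RNA gene between P4ha2 and Csf2. 4933405E24Rik stood at 0.775, 1.43 and 1.19 CPM in the ICOS KO libraries, against 4.14, 3.58 and 4.52 CPM in the WT libraries, and fell by 1.85 ± 0.39 on the log2 scale (SE, n = 3 each, edgeR adjusted p = 0.0243). It lost its call without ICOS KO replicate 3 or any 1 of WT replicates 1, 2 and 3 (0.0707 to 0.111). P4ha2, 4933405E24Rik and Csf2 lie within 150 kb, and Gm12222, a pseudogene inside 4933405E24Rik, stood at 0.51 ± 0.62 on that scale and was not called (edgeR adjusted p = 0.677). The uncalled genes of the region had log2 fold changes of −0.72 to 1.76.

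**Figure D4:**
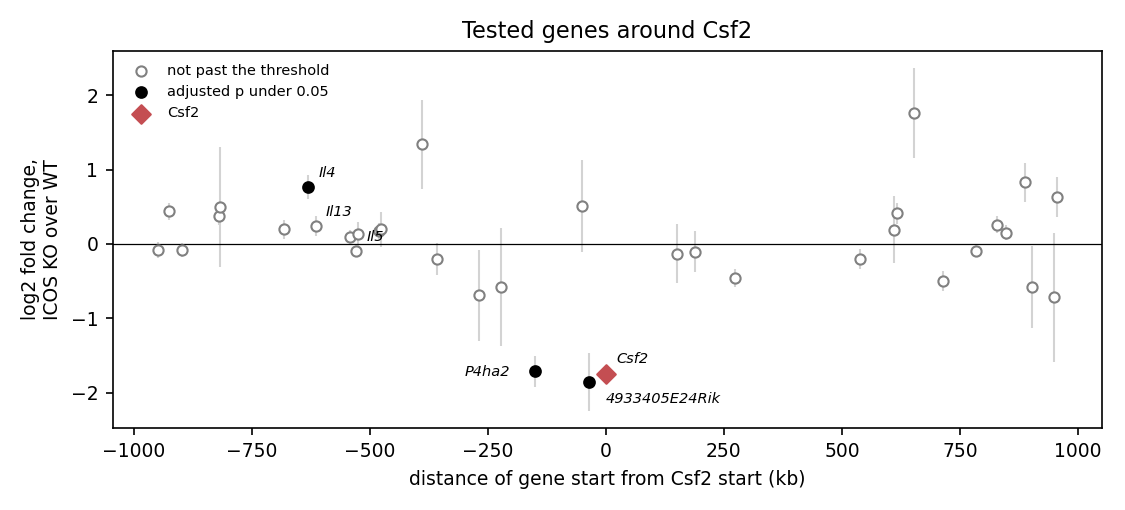
Log2 fold change (ICOS KO over WT) of tested genes against the distance of their start from that of Csf2 in kb; filled circles passed an edgeR adjusted p of 0.05, vertical lines are SE, and Csf2 (diamond) is drawn at 0 kb without a test. Csf2 (−1.74), 4933405E24Rik (−1.85) and P4ha2 (−1.71) lie together below 0, and Il4 (0.77) is the 1 called gene above 0.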

How the data were processed

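RNA was measured in 6 libraries of cultured lung ILC2s, 3 ICOS KO and 3 WT. The submitters' processing notes name the build mm10 and the tools DESeq2, STAR 2.7.8 and Partek 10.0 without roles. How reads were counted, on which annotation and with which strand setting, is not given in the sources used here. Expression is deposited as estimated counts in 1 table by the authors, of which 38.9% of values were not whole (more than 1e-06 from a whole number) and no gene totalled under 10 over the libraries. Libraries were matched to genotypes by the labels, which matched the table's own genotype entries for all 6.

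Estimated counts were rounded, filtered with edgeR's filterByExpr and scaled with TMM factors. The quasi-likelihood test of edgeR 4.0.16 (R 4.3.3, limma 3.58.1) compared ICOS KO over WT without covariates, with Benjamini-Hochberg adjustment over 13691 genes at 0.05. SE values are those implied by the F statistic, and the common biological coefficient of variation was 18.6%. The fit was tested on simulated data. Every pair of libraries differed by at least 8.85 chi-square per degree of freedom, so none was a copy of another. Distances used log2 CPM with a prior count of 2. Levels per kilobase used the longest coding transcript of GENCODE M21 (GRCm38), which also gave positions and sequences; protein sequences were not used here.

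The members, the lists and the markers were chosen with earlier results of these data known. The rule for named genes took the 4 members, every called gene of the pathway lists and the 3 most abundant of each, the 2 nearest coding genes on each side of a member, Il5, Il13, Il4, Icos and the 5 genes nearest to Csf2. The scan of 1000 kb around Csf2, with 4933405E24Rik and Gm12222, Jak2, Stat5a, Stat5b, Il5ra, the marker genes given by value and the genes of the closing part were named after values were seen. The alternatives were DESeq2 size factors, library totals and upper-quartile scaling, DESeq2 1.42.0, limma voom, no filter, at least 5 CPM in 3 libraries, a replicate block, removal of the dependence on transcript length and GC content (available for 97.8% of tested genes), each library left out, and the beta chain genes summed.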

Additional observations from a re-analysis of the deposited data

How the results depend on the processing

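The count of 451 called genes was 929 with DESeq2 and ranged from 193 to 1090 with 1 library left out, and the 11 called pathway genes ranged from 1 to 16. Of the calls, 39% were higher in ICOS KO cells, 28.2% with library totals alone and 58.2% with the trend of length and GC content removed. That removal gave log2 fold changes of −2.04 for Csf2, −0.79 for Csf2rb and 0.051 for Csf2rb2, and summing the beta chain genes gave −0.85 for both; the cause was not tested. With 1 library left out Csf2 ranged from −1.80 to −1.70, Csf2ra from −0.38 to −0.29, Csf2rb from −1.08 to −0.92 and Csf2rb2 from −0.32 to −0.036. Libraries with the same replicate number had deviations correlated at 0.087, 0.078 and 0.064, each best with its own number, and were not taken as paired; with the replicate number as a block 784 genes and 15 pathway genes were called and Csf2 was at −1.74. Elavl1, not called, turned to 0.042 with the trend removed. With 1 library left out, 5 uncalled genes changed direction: Pik3cd ranged from −0.021 to 0.29, Il3ra from −0.076 to 0.44, Tst from −0.054 to 0.48 (−0.0235 without WT replicate 2), Junb from −0.13 to 0.047 and Hnrnpd from −0.013 to 0.31. The alternatives were run on 19 called genes besides the members, of which 7 kept the call in every setting run; they were not run on the cell type markers outside the rule for named genes, such as Klrg1, Areg and Cpa3. Depth limits the precision of genes with few counts, Csf2ra and Csf2rb2 among them.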

Other observations

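The following genes were chosen after their values were seen. Csf3r, the receptor gene of granulocyte colony-stimulating factor, stood at 2.84, 1.13 and 1.56 CPM in the ICOS KO libraries, against 0.524, 0.210 and 0.131 CPM in the WT libraries, and did not pass the threshold (edgeR adjusted p = 0.0564). Csf1, the ligand of Csf1r, averaged 3.77 ± 1.54 CPM in ICOS KO cells and 5.90 ± 1.78 CPM in WT cells (SD, n = 3 each, edgeR adjusted p = 0.353). Among regulators linked to Csf2, Fos and Batf had every ICOS KO library above every WT library, as 11.9% of tested genes did. Neither of these AP-1 genes passed the threshold. Fos averaged 32.9 ± 2.11 CPM in ICOS KO cells and 23.3 ± 1.23 CPM in WT cells (edgeR adjusted p = 0.0689). Batf averaged 215 ± 26.0 CPM in ICOS KO cells and 160 ± 9.46 CPM in WT cells (edgeR adjusted p = 0.0614). The other tested AP-1 genes of that list overlapped between the groups and were not called. Their log2 fold changes were −0.35 for Jun, −0.18 for Fosl2, −0.038 for Junb and 0.22 for Jund. The ILC2 markers Klrg1, an inhibitory receptor gene, and Areg, the gene of the growth factor amphiregulin, rose, Klrg1 to 557 ± 49.4 CPM in ICOS KO cells against 240.3 ± 19.4 CPM in WT cells (edgeR adjusted p = 5.9e-05) and Areg to 257 ± 14.8 CPM in ICOS KO cells against 96.7 ± 10.6 CPM in WT cells (edgeR adjusted p = 2.72e-05).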
